A study of Homo sapiens with 12 samples.

Results

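The ribosomal DNA entries of the count table were RNA5-8SN1 and RNA5-8SN4, which carry the names of 5.8S ribosomal RNA genes, and FP671120.3, FP671120.4 and FP236383.3, which carry only the name of a sequenced clone. They were 5 of 52889 gene entries. They were chosen by symbol, because the differences of their counts between groups were already known. Their own differences are therefore described below without a test. A further 6 entries that were not chosen this way, RNA5-8SN2, RNA5-8SN3, FP671120.1, FP671120.2, FP236383.1 and FP236383.2, were tested. They were grouped with the members as a unit by gene or clone name alone.

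The counts come from ATAC-Seq, in which a transposase cuts and tags open DNA, so that a gene's read count follows how accessible its DNA is and how many copies of it are present. The cells were HEK293T, a human embryonic kidney line that is easily transfected, carrying stably integrated Sleeping Beauty transposon vectors. In 3 samples (Mock) the vector pSBTet-GP was empty, and in the 9 others MLL-AF4 was expressed constitutively. MLL-AF4 and AF4-MLL are the reciprocal products of the t(4;11) fusion of KMT2A (MLL) and AFF1 (AF4). At d0 (n = 3) MLL-AF4 was the only fusion gene, and at d3 (n = 3) AF4-MLL had in addition been induced for 48 h with doxycycline at 1 µg/ml. The d28 samples (n = 3) came 25 days after doxycycline was withdrawn, with a labelled genotype equal to that of d0. The paper describes AF4-MLL expression as diminishing after the withdrawal. The AF4-MLL vector was introduced transiently after d0, and the study names blasticidin beside doxycycline for the 48 h. A difference of d3 or d28 from d0 thus cannot be told apart from one of transfection or drug treatment. The labelled protocol names the doxycycline step for all 12 samples, Mock and d0 included. The sources do not say whether the stable populations were clonal or on which day the Mock cells were collected, so a difference between the Mock population and the others cannot be told apart from one between transfected populations. The cell type itself could not be checked against expressed markers, since the counts are of DNA.

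Human ribosomal DNA consists of tandem repeats on the short arms of the acrocentric chromosomes. RNA polymerase I transcribes each repeat into a 45S precursor, from which the 18S, 5.8S and 28S ribosomal RNAs are cut and modified in the nucleolus, while 5S ribosomal RNA is made elsewhere by RNA polymerase III. Repeats exist in an open, transcribed state and in a closed, silent state. Their number differs between cells and lines, so in these libraries fewer repeats and less cutting per repeat cannot be told apart.

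The places that the study's tables list for these identifiers were compared with the ribosomal RNA genes of RefSeq on GRCh38.p14. FP671120.3 lies on chromosome 21 within the 18S gene RNA18SN2 (8209631 to 8211499), which is part of the precursor gene RNA45SN2 (8205988 to 8219302). FP236383.3 lies within the 18S gene RNA18SN1 (8436876 to 8438744) of RNA45SN1 (8433222 to 8446572). The non-member FP236383.2 lies within RNA18SN3 (8392666 to 8394534) of RNA45SN3 (8389035 to 8402343). FP671120.4 is listed on chromosome 21 with the same length as these 3, but not wholly within a ribosomal RNA gene of RefSeq. These 4 are called 18S-region entries here. RNA5-8SN1 (ENSG00000275215) lies in the 157-base exonic gene that RefSeq calls RNA5-8SN3 (chromosome 21, 8395606 to 8395762), so the annotations number the copies differently. RNA5-8SN4 joins 5 Ensembl identifiers in a single row, and no place was listed for it. FP671120.1 and FP236383.1 are listed on chromosome 21, at places not wholly within a RefSeq ribosomal RNA gene. Partial overlap with such a gene was not checked, and different extents were listed for FP236383.1. Both entries are called spacer entries here, as a label only. No place was listed for FP671120.2, RNA5-8SN2 or RNA5-8SN3.

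Counts outside the 37 mitochondrially encoded genes numbered 257857 to 368776 in Mock cells, 352673 to 398640 at d0, 591071 to 662727 at d3 and 376209 to 1116385 at d28. Mitochondrial genes took 26.4% to 27.0% of all counts in Mock cells, 42.0% to 45.6% at d0, 32.8% to 44.1% at d3 and 63.6% to 68.5% at d28. Member values are given below as a share of the counts outside these genes. Nuclear copies of mitochondrial genes stay in that denominator, and took 3.22% to 3.43% of it in Mock cells, 6.56% to 7.66% at d0, 4.47% to 7.21% at d3 and 16.0% to 19.8% at d28. All 11 entries of the unit passed the filter on low counts, and the 5 members were far above it in each group. FP671120.2 passed only through Mock cells (mean normalized count 4.02, against 0.904, 0.521 and 1.01 at d0, d3 and d28). Its lower values on those days were therefore built in by the filter.

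The 5 members together held less of the library in all 9 samples with MLL-AF4 than in Mock cells, and more at d3 than at d0 or d28. Their summed share was 0.354%, 0.374% and 0.423% in the 3 Mock samples (1123, 1378 and 1090 counts). It was 0.166%, 0.149% and 0.154% at d0 (661, 527 and 586 counts), 0.262%, 0.285% and 0.191% at d3 (1737, 1684 and 1197 counts), and 0.170%, 0.176% and 0.149% at d28 (1893, 1402 and 559 counts). The means were 0.383% ± 0.0353 in Mock cells, 0.156% ± 0.00844 at d0, 0.246% ± 0.0488 at d3 and 0.165% ± 0.0144 at d28 (SD, n = 3 each). Relative to the Mock level the members thus stood at 40.8% (d0), 64.2% (d3) and 43.0% (d28), and the d3 mean was 1.57-fold that of d0. No d3 sample overlapped d0, d28 or Mock cells. The d3 samples had the widest spread, with replicate 3 low in both the members and the share of mitochondrial counts (32.8% against 44.1% and 41.4%). Whether this bears on the members was not tested. Without that sample the summed share at d3 was higher than at d0 by 0.81 on the log2 scale, against 0.65 with it.

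**Figure D1:**
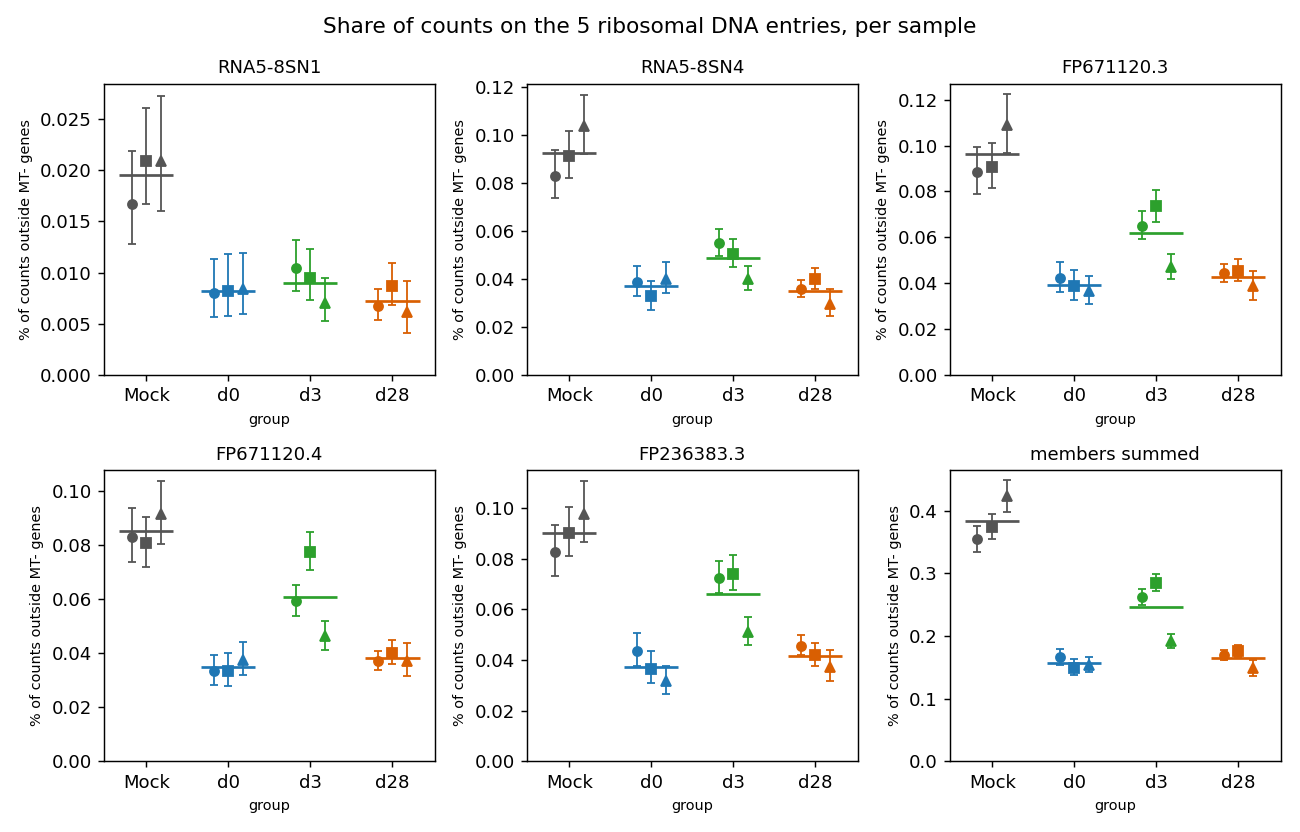
Share of the counts outside mitochondrial genes (vertical axis, percent) on each of the 5 members and on their sum, for the 4 groups. Points are samples with 95% Wilson intervals, circles, squares and triangles are replicates 1, 2 and 3, and horizontal lines are group means. All Mock points lie above all others in each panel, and the d3 points lie highest among the other groups in the FP panels.

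Among the 5.8S entries, RNA5-8SN1 had shares of 0.0167%, 0.0209% and 0.0209% in Mock cells. They were 0.00803%, 0.00822% and 0.00842% at d0, 0.0104%, 0.00947% and 0.00703% at d3. At d28 they stood at 0.00672%, 0.00867% and 0.00611%. All 9 values lay below the lowest Mock sample, and those of d0, d3 and d28 overlapped. RNA5-8SN4 had shares of 0.0829%, 0.0911% and 0.104% in Mock cells, 0.0386%, 0.0326% and 0.0400% at d0, 0.0549%, 0.0504% and 0.0400% at d3. The d28 values were 0.0357%, 0.0398% and 0.0295%. Again every Mock sample was above the rest, and d3 replicate 3 fell into the range of d0.

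Among the 18S-region entries, FP671120.3 had shares of 0.0886%, 0.0908% and 0.109% in Mock cells. They were 0.0421%, 0.0386% and 0.0366% at d0, 0.0650%, 0.0734% and 0.0468% at d3. Shares of d28 were 0.0443%, 0.0454% and 0.0385%. The 3 d3 values lay between the other days and Mock cells without overlap. FP671120.4 had shares of 0.0832%, 0.0808% and 0.0915% in Mock cells, 0.0334%, 0.0335% and 0.0376% at d0, 0.0593%, 0.0775% and 0.0464% at d3. In d28 samples they were 0.0372%, 0.0402% and 0.0372%. FP236383.3 had shares of 0.0826%, 0.0900% and 0.0977% in Mock cells, 0.0436%, 0.0366% and 0.0316% at d0, 0.0724%, 0.0741% and 0.0512% at d3. d28 gave 0.0456%, 0.0421% and 0.0372%. Both followed FP671120.3, with d3 between Mock cells and the other days in each.

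Counted over members, 5 of 5 lay below Mock cells without overlap at d0, where 9.15% of the 27543 tested genes outside the mitochondrial genome did so. At d3 this was again 5 of 5, against 8.67% of tested genes, and at d28 5 of 5, against 17.5%. From d0 to d3, 3 of 5 (the FP entries) were higher without overlap, against 9.45% of tested genes. From d3 to d28, 4 of 5 (all but RNA5-8SN1) were lower, against 15.4%. Between d28 and d0 none was separated in either direction, against 14.4% of tested genes lower and 5.61% higher. The members were picked on these contrasts, so nothing is read from the counts. The 3 comparisons with Mock cells also share the same Mock samples.

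On normalized counts, which scale each library (TMM factors) on the assumption that most genes are unchanged, the 5 members were close together at d0 and spread at d3. Log2 fold changes from Mock cells to d0 were -1.18 for RNA5-8SN1 (standard error 0.19), -1.25 for RNA5-8SN4 (0.13), -1.23 for FP671120.3 (0.13), -1.22 for FP671120.4 (0.13) and -1.21 for FP236383.3 (0.13). At d3 they were -1.03 for RNA5-8SN1 (standard error 0.17) and -0.84 for RNA5-8SN4 (0.12), but -0.55, -0.39 and -0.36 for FP671120.3, FP671120.4 and FP236383.3 (0.12 each). At d28 they were -1.15, -1.11, -0.89, -0.89 and -0.83 in the same order. For d0, d3 and d28 the members' median was -1.22, -0.55 and -0.89, while the median over all 27579 tested genes was -0.0017, 0.028 and 0.032.

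From d0 to d3 the log2 fold changes of the members were 0.15 for RNA5-8SN1, 0.41 for RNA5-8SN4, 0.68 for FP671120.3, 0.83 for FP671120.4 and 0.84 for FP236383.3, with a median of 0.68 against 0.024 over all tested genes. From d3 to d28 they were -0.12, -0.27, -0.34, -0.50 and -0.47 in the same order (median -0.34 against 0.0063). Between d28 and d0 the sign of the median depends on the scaling: it was 0.33 with TMM factors and -0.57 with library sizes only, and the summed share outside mitochondrial genes gave 0.075. Leaving the nuclear copies of mitochondrial genes out of the denominator as well gave 0.25.

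Of the 6 non-members of the unit, 5 had lower normalized counts than in Mock cells on each day past an adjusted p-value of 0.05 in edgeR's quasi-likelihood test. Of all tested genes, 0.196% passed in this direction at d0, 0.439% at d3 and 0.609% at d28. RNA5-8SN2, RNA5-8SN3 and FP236383.2 are copies of the members' sequences and divide the same pool of reads with them, as the counts per copy further on show. Their calls were therefore largely fixed by the choice of members, and are given as values of these rows and not as independent support.

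RNA5-8SN2 and RNA5-8SN3 are the other 5.8S entries. RNA5-8SN2 had 43, 67 and 64 counts in Mock cells, 33, 31 and 33 at d0, 62, 58 and 53 at d3. Counts at d28 were 86, 46 and 25. As shares of counts outside mitochondrial genes these were 0.0136% to 0.0248% in Mock cells and 0.00578% to 0.00981% in the other 9 samples, without overlap. For d0, d3 and d28 its log2 fold changes were -1.05 (standard error 0.19, adjusted p = 2.11e-05), -0.92 (0.17, adjusted p = 3.77e-05) and -1.17 (0.17, adjusted p = 6.63e-09) in edgeR's test. RNA5-8SN3 had shares of 0.0180% to 0.0225% in Mock cells and 0.00704% to 0.0112% in the others. Its log2 fold changes were -1.17 (standard error 0.19, adjusted p = 3.62e-07), -0.93 (0.17, adjusted p = 1.23e-05) and -0.99 (0.16, adjusted p = 7.92e-07) at d0, d3 and d28 by the same edgeR test. Both 5.8S calls held on each day with any sample left out.

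FP236383.2, the non-member in an 18S gene, had shares of 0.0892%, 0.0892% and 0.102% in Mock cells. They were 0.0477%, 0.0323% and 0.0447% at d0, 0.0681%, 0.0721% and 0.0504% at d3. At d28 they stood at 0.0425%, 0.0478% and 0.0407%. The d3 samples again lay between Mock cells and the other days. Relative to Mock cells its log2 fold changes were -1.10 for d0 (standard error 0.13, adjusted p = 2.17e-14), -0.47 for d3 (0.12, adjusted p = 0.00937) and -0.83 for d28 (0.12, adjusted p = 1.45e-09) in edgeR's test. From d0 to d3 it rose by 0.63 (0.13, adjusted p = 0.000638, edgeR). The change from d3 to d28 was -0.36 (adjusted p = 0.181) and that from d0 to d28 was 0.27 (adjusted p = 0.349, edgeR), and neither passed. The d3 call against Mock cells depended on single samples: the adjusted p from edgeR was 0.0759 without Mock replicate 2, 0.167 without Mock replicate 3 and 0.210 without d3 replicate 3. The rise from d0 to d3 was 0.49 (adjusted p = 0.0851, edgeR) without d0 replicate 2, and without d3 replicate 3 the fall of 0.50 from d3 to d28 passed.

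The spacer entries were lower than in Mock cells too. Their log2 normalized counts had a Pearson correlation of 0.93 over the 12 samples, and the 2 rows divided their reads almost evenly. They count as a single observation at most, from the same libraries on which the members were picked. FP671120.1 had shares of 0.0208%, 0.0217% and 0.0167% in Mock cells, 0.0108%, 0.0108% and 0.0113% at d0, 0.0128%, 0.0129% and 0.00815% at d3. The d28 values were 0.00851%, 0.00804% and 0.00505%. No value of the 9 samples reached those of Mock cells. Its log2 fold changes were -0.80 for d0 (standard error 0.18, adjusted p = 0.00208), -0.74 for d3 (0.16, adjusted p = 0.00108) and -1.11 for d28 (0.17, adjusted p = 1.05e-08) by edgeR's test. Without Mock replicate 2 its calls at d0 and d3 were lost, and without d3 replicate 3 that at d3, where its highest adjusted p-values were 0.108 and 0.101. FP236383.1 had shares of 0.0175% to 0.0186% in Mock cells and 0.00505% to 0.0103% in the others, with log2 fold changes of -0.85 (adjusted p = 0.00194), -0.78 (adjusted p = 0.000991) and -0.98 (adjusted p = 3.23e-06) at d0, d3 and d28 in edgeR's test. FP671120.2 had 0 to 3 counts in each of the 12 samples, too few for a fold change, and did not pass at d0, d3 or d28 (adjusted p = 0.55, 0.257 and 0.378, edgeR).

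Between the days with MLL-AF4, FP236383.2 was the 1 of 6 non-members that passed from d0 to d3, where 0.598% of all tested genes were called higher. The other 5.8S and spacer entries had log2 fold changes from 0.065 to 0.24 there (adjusted p from 0.692 to 0.934, edgeR). None of the 6 passed between d28 and d0 or between d28 and d3 in edgeR's test or in DESeq2's. At an unadjusted p below 0.05 in edgeR's test, 1 and 2 of the 6 did, beside 3482 and 2434 of all 27579 tested genes. The share of tested genes called at an adjusted p below 0.05 was 1.35% and 0.37%.

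**Figure D2:**
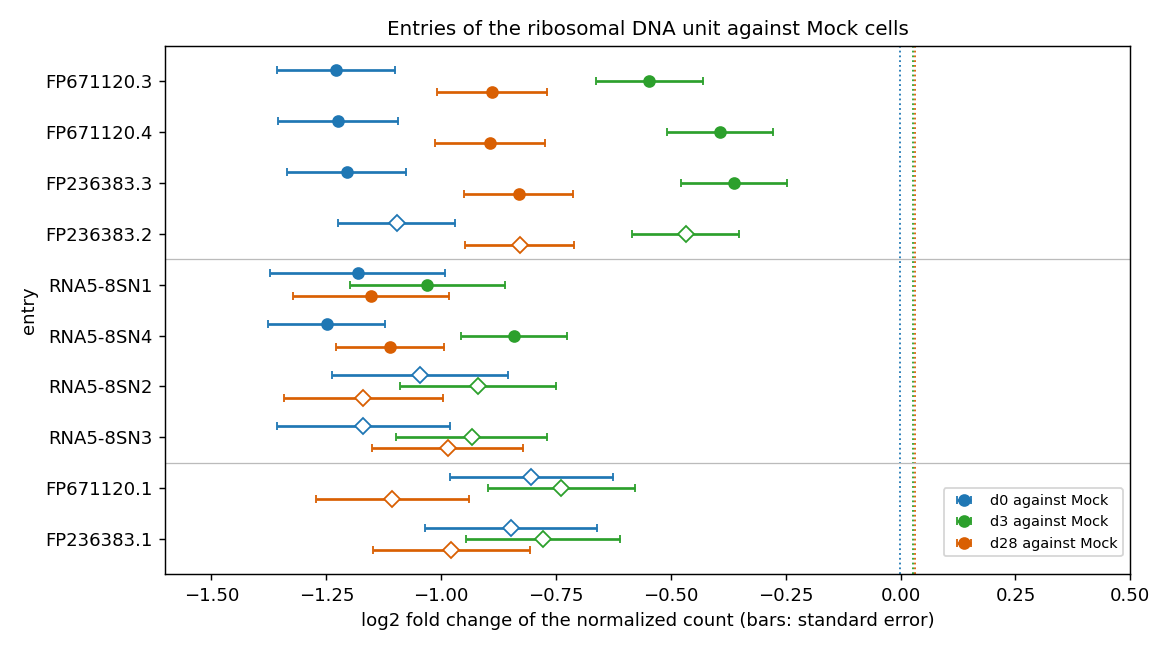
Log2 fold change of the normalized count against Mock cells (horizontal axis) for 10 entries of the unit, with 18S-region entries on top, 5.8S entries in the middle and spacer entries at the bottom. Filled circles are members, open diamonds non-members, bars standard errors, and dotted lines the medians of all tested genes. The d3 points of the 18S-region entries, from -0.55 to -0.36, lie to the right of their d0 and d28 points, while those of the 5.8S entries lie between -1.03 and -0.84.

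The classes within the unit were compared as a ratio of counts in the same library, which no scaling factor changes. In Mock cells the 3 FP members had 2.55, 2.34 and 2.40 counts for each count on the 2 5.8S members, and at d0 2.55, 2.66 and 2.18. At d3 the ratio was 3.01, 3.76 and 3.07, and at d28 2.99, 2.63 and 3.17. The means were 2.43 ± 0.112 in Mock cells, 2.47 ± 0.249 at d0, 3.28 ± 0.414 at d3 and 2.93 ± 0.275 at d28 (SD, n = 3). All d3 values were above all those of Mock cells and d0, and the d28 values overlapped with d0 in replicate 2. The non-members also had their highest mean at d3 and the next at d28, with 2.46 ± 0.343 in Mock cells, 2.45 ± 0.509 at d0, 3.34 ± 0.383 at d3 and 2.97 ± 0.658 at d28 for FP236383.2 over RNA5-8SN2 plus RNA5-8SN3. No test was made of these ratios, since the pattern was noticed in the same samples.

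**Figure D3:**
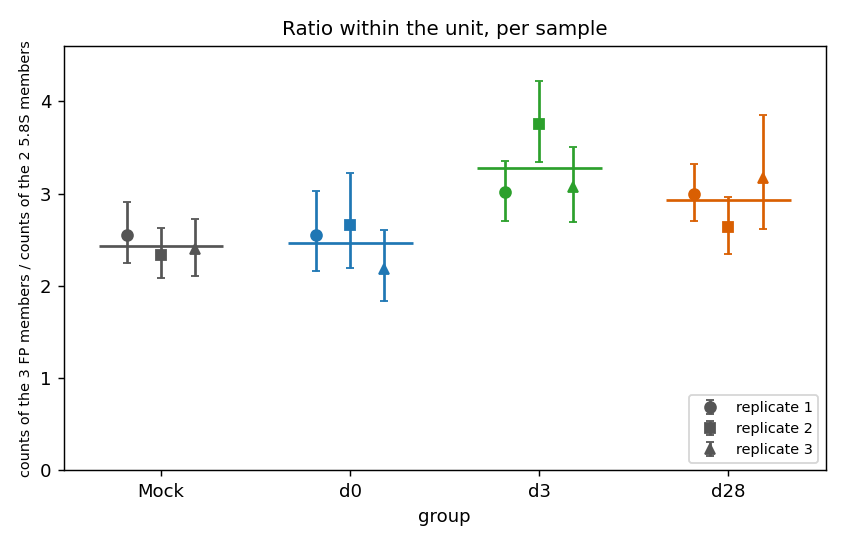
Counts of the 3 FP members divided by counts of the 2 5.8S members (vertical axis) in each sample of the 4 groups. Bars are 95% intervals from counting, horizontal lines are group means, and the shapes mark replicates. The d3 samples lie between 3.01 and 3.76, and those of Mock cells and d0 between 2.18 and 2.66.

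Against the spacer entries, the 4 18S-region entries together had 9.75 ± 1.71 counts for each spacer count in Mock cells, 7.43 ± 0.680 at d0 and 11.8 ± 1.09 at d3 (SD, n = 3), and from 10.3 to 15.2 at d28. The 4 5.8S entries had 4.04 ± 0.889, 3.03 ± 0.104, 3.59 ± 0.140 and 4.11 ± 0.820 in the same order. The d28 spread rests on replicate 3, the shallowest d28 library, with 19 counts on each spacer entry. Over the whole unit of 11 entries the summed share was 0.554% ± 0.0473 in Mock cells, 0.236% ± 0.0159 at d0, 0.350% ± 0.0646 at d3 and 0.238% ± 0.0203 at d28 (SD, n = 3), and the members held 65.0% to 71.4% of it.

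Copies of the same sequence drew similar counts. Per Ensembl identifier, the mean Mock count was 61.3 for RNA5-8SN1 and 57.7 for RNA5-8SN4 with its count divided by 5, and RNA5-8SN2 and RNA5-8SN3 lay between 57.7 and 62.0. RNA5-8SN4 took 56.1% to 65.0% of all 5.8S counts, with a median of 61.3%, where an even split over 8 identifiers gives 62.5%. The 95% Wilson interval held that value in 12 of 12 samples. For the even share of RNA5-8SN1, RNA5-8SN2 and RNA5-8SN3 this was so in 12, 11 and 10 samples. FP671120.3 took 24.1% to 27.4% of the 18S-region counts, and its interval held the even share of 25% in 12 of 12 samples, against 9 of 12 for FP671120.4, 10 for FP236383.2 and 10 for FP236383.3. The 2 spacer entries split evenly within the interval in 12 of 12. Rows of a class thus divided their reads almost evenly, and RNA5-8SN4 exceeded RNA5-8SN1 by about the number of identifiers it joins.

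Over the 12 samples, the log2 normalized counts of RNA5-8SN1 and RNA5-8SN4 had a Pearson correlation of 0.97. Pairs of the FP members had 0.94 to 0.98, and pairs of a 5.8S member with an FP member 0.80 to 0.95. These describe rows of the same libraries that can share reads.

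Likeness was ranked over 8285 genes outside the 11 unit entries and the mitochondrial genome whose normalized counts averaged 20 or more. The 5 whose profile was most like that of the summed members were AC010619.2 (r = 0.94), RF01518 (r = 0.94), CHCHD10 (r = 0.90), PKMYT1 (r = 0.90) and RPL36 (r = 0.89). AC010619.2 is an entry without a gene name, and its normalized count was 442 to 484 in Mock cells, 106 to 117 at d0, 182 to 201 at d3 and 144 to 174 at d28. RF01518, a row that joins 10 Ensembl identifiers, had 325 to 419, 184 to 197, 184 to 305 and 224 to 240 in the same order. Its lowest d3 value was in replicate 3, as it was for the summed members. The unit was defined by symbol, so whether RF01518 or AC010619.2 belongs to the same repeat was not checked. CHCHD10 encodes a mitochondrial protein, PKMYT1 a kinase that holds back entry into mitosis, and RPL36 a protein of the large ribosomal subunit. Their normalized counts were 61.9 to 65.9, 77.8 to 97.8 and 52.4 to 60.9 in Mock cells, and 32.4 to 36.1, 41.1 to 42.5 and 27.4 to 35.5 at d0. At d3 they had 46.2 to 53.9, 63.1 to 70.5 and 46.0 to 59.3, and at d28 36.4 to 48.5, 50.6 to 56.8 and 33.5 to 45.4. All 5 share the libraries of the members, and were selected for likeness from many genes.

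Genes of the 5S array and of other multi-copy small RNAs gave no calls. None of the 17 5S genes (RNA5S entries, the ribosomal RNA made by RNA polymerase III) passed in any comparison in edgeR's test or DESeq2's, with 0 to 1 at an unadjusted p below 0.05. For d0 against Mock cells the standard errors of these genes ran from 0.35 to 0.46, against 0.13 to 0.19 for the members. A change of the members' size in a single 5S row could thus go uncalled. Against Mock cells the list's median for d0, d3 and d28 was 0.19, 0.18 and 0.15 with TMM factors, and -0.26, -0.18 and -1.22 with library sizes only, where the median over all genes was -0.48, -0.37 and -1.34. Of 367 5S pseudogenes 15 had enough counts, and none passed in either test (0 to 2 at an unadjusted p below 0.05). The 2 5.8S pseudogenes in the table had too few. Among 18 other multi-copy small RNA genes, such as those of the 7SL RNA, spliceosomal RNAs and vault RNAs, none passed in either test (0 to 3 unadjusted), and the list's medians were 0.42 (d0), 0.36 (d3) and 0.27 (d28). Over all 27579 tested genes, 2434 to 3482 had an unadjusted p below 0.05 in the 6 comparisons.

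The protein genes of ribosomal RNA synthesis gave few calls. None of 20 genes of the RNA polymerase I machinery (polymerase subunits, the initiation factors UBTF and RRN3, and cofactors) passed in any comparison in edgeR's test or DESeq2's. At an unadjusted p below 0.05, 1 to 5 did, and the lowest adjusted p of the list was 0.0719 (edgeR) at d3, for TAF1D, which encodes a subunit of the promoter selectivity factor. Its log2 fold change there was 0.54, and without Mock replicate 3 it passed with 0.72 (adjusted p = 0.0244, edgeR), as it did without a filter. In the other settings tried it did not pass. Without Mock replicate 1 it had 0.35 (adjusted p = 0.503, edgeR) and without Mock replicate 2 0.61 (adjusted p = 0.148, edgeR). DESeq2 gave it an adjusted p of 0.342. TAF1D was named after its values were seen. None of 19 genes of ribosomal DNA chromatin, such as BAZ2A of the nucleolar remodelling complex, passed in either test (1 to 4 unadjusted). Of 40 genes of precursor processing, NOL11, a component of the small subunit processome, was the 1 that passed, with a rise of 0.91 from d0 to d28 (adjusted p = 0.0221, edgeR), against 0.682% of tested genes called higher. DESeq2 gave an adjusted p of 0.0904 for it, and edgeR 0.258 without d0 replicate 2, 0.138 without d0 replicate 3, 0.0786 without d28 replicate 1 and 0.069 without d28 replicate 2. In the 5 other comparisons no gene of that list passed in either test, with 1 to 9 at an unadjusted p below 0.05. The same unadjusted count over all tested genes was 2434 to 3482 of 27579 in the 6 comparisons.

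Among the small RNAs of precursor processing, counts sufficed for 5 of the 8 genes. Of these, 2 copies of the U3 small nucleolar RNA, which guides early cleavages of the precursor, had higher normalized counts at d0 than in Mock cells, and the 3 others did not pass. Of all tested genes, 0.413% passed in this direction. SNORD3B-2 had normalized counts of 106, 111 and 70.1 in Mock cells and 172, 180 and 152 at d0, which is 0.78 higher in log2 units (standard error 0.15, adjusted p = 5.38e-05, edgeR). SNORD3B-1 had 103, 89.0 and 99.7 in Mock cells and 158, 165 and 152 at d0, which is 0.70 higher (standard error 0.15, adjusted p = 0.000673, edgeR). The groups did not overlap for either, and both calls held with each sample left out, but not with library sizes only (0.33 and 0.25, with adjusted p = 0.251 and 0.413, edgeR). The U3 copies are near-identical and can share reads, so they count as a single observation at most.

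From d0 to d3, where 0.312% of tested genes were called lower, SNORD3B-2 fell by 0.45 (adjusted p = 0.0436) and SNORD3B-1 by 0.61 (adjusted p = 0.00188) in edgeR's test, and from d0 to d28 SNORD3B-2, SNORD3B-1 and SNORD3A fell by 0.51, 0.52 and 0.50 (adjusted p = 0.00842, 0.00862 and 0.00769, edgeR), against 0.667% of tested genes called lower. The d28 calls were lost without d0 replicate 1, d0 replicate 2 or d28 replicate 2, with adjusted p from edgeR between 0.065 and 0.142, and that of SNORD3B-2 also without d28 replicate 3 (adjusted p = 0.0604, edgeR). The d3 call of SNORD3B-2 was lost without any of d0 replicates 1 to 3, d3 replicate 1 or d3 replicate 3 (adjusted p from 0.0695 to 0.242, edgeR). Without d3 replicate 2 SNORD3A passed there as well (adjusted p = 0.0251, edgeR). SNORD13, which acts in 18S maturation, had normalized counts of 7.48, 2.58 and 1.85 in Mock cells and 15.4, 16.3 and 12.7 at d3, a log2 fold change of 1.84 (adjusted p = 0.0173, edgeR), where 0.834% of tested genes were called higher. That call was lost without Mock replicate 2, Mock replicate 3 or d3 replicate 2, with adjusted p of 0.199, 0.132 and 0.0612 from edgeR, and without Mock replicate 1 SNORD13 also passed at d28 (adjusted p = 0.0483, edgeR).

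**Figure D4:**
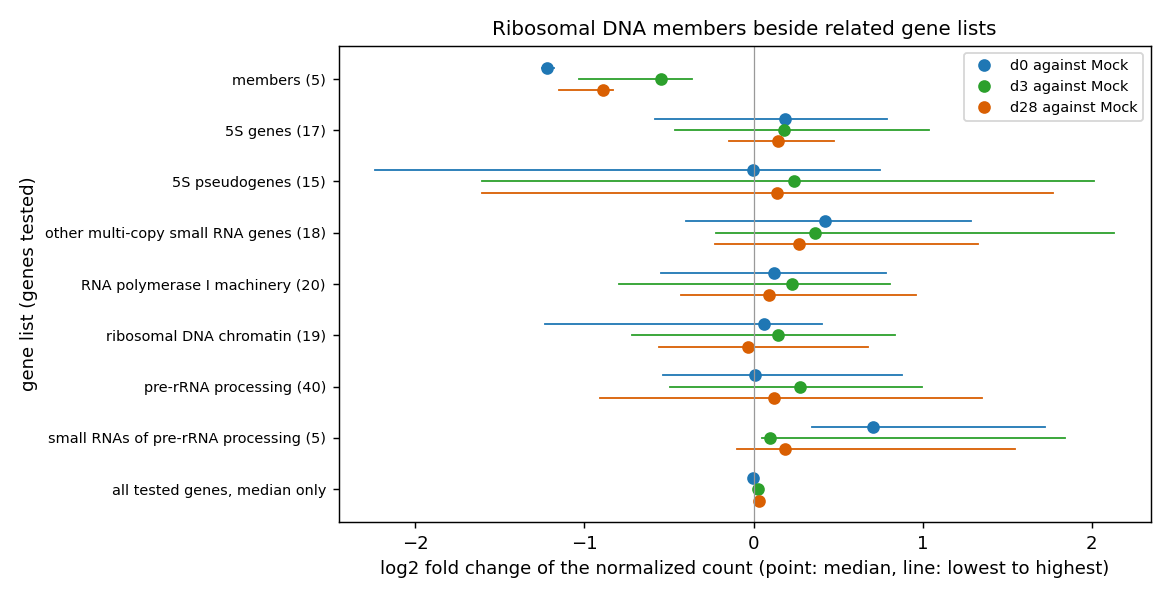
Log2 fold change against Mock cells (horizontal axis) for the 5 members, 7 gene lists and all tested genes, with the number of genes tested in parentheses. Points are medians and lines run from the lowest to the highest gene. The member medians lie at -1.22, -0.55 and -0.89, and the list medians between -0.030 and 0.70.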

How the data were processed

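Raw counts per gene from ATAC-Seq were used for 12 HEK293T samples (4 groups of 3). The authors deposited these counts as whole numbers without normalization. The submitters' processing notes name bcl2fastq, Bowtie2, HTSeq and GRCh38, without versions. Read shifting, duplicate removal, the handling of reads with several matches and which interval stood for each gene are not given in the sources used here, and each decides how ribosomal DNA reads are divided among rows. No counts of 28S, 18S or 45S genes under those names were used.

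The test covered the 27579 genes whose normalized count averaged over 2 in some group, with edgeR 4.0.16 (R 4.3.3): TMM factors, quasi-likelihood F test, all 12 samples, no block, Benjamini-Hochberg adjustment over all tested genes, threshold 0.05. DESeq2 1.42.0 served as an alternative. Shares and 95% Wilson intervals were computed with Python 3.11.15 and scipy 1.17.1, and plotted with matplotlib 3.10.9. Intervals cover counting error only. The step was run on simulated counts without mitochondrial genes, for d0 against Mock cells only. That run cannot check the scaling of libraries whose mitochondrial share differs. Members and gene lists were chosen with earlier results of these data known. Named were all entries of the ribosomal DNA unit, up to 4 called genes per list with the smallest p-values, and the 5 genes most like the summed members. The labels call the replicates biological. Where separate cultures are not documented, p-values measure the spread between these samples. Replicate pairs differed beyond sampling noise (chi-square per degree of freedom 1.06 to 1.38). Same-numbered samples showed no shared deviation (correlations from -0.152 to 0.0802), and no pairing was used. Counting noise can hide a shared deviation, so this check does not exclude pairing. Gene lists were recomputed under the alternatives as a choice made after seeing the data. RefSeq (GRCh38.p14) gave gene positions.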

Additional observations from a re-analysis of the deposited data

Results flagged for a closer look

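FP236383.2, a non-member row in an 18S gene, differed between 2 days that were both compared with Mock cells. Its log2 fold change from d0 to d3 was 0.63 (adjusted p = 0.000638, edgeR), and each of the 3 d3 samples was above each of the 3 d0 samples. This row divides its reads almost evenly with the 3 FP members, which were chosen on the same contrasts, so its call is no independent support for theirs.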

How the results depend on the processing

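The members' median and summed share lay below Mock cells on each day, and higher at d3 than at d0. This held under each scaling, filter, test and denominator tried and with each sample left out. Since the members were picked on these contrasts in the same samples, that persistence was largely fixed by the choice and is no support for them. For RNA5-8SN1 alone the log2 fold change from d0 to d3 ranged from 0.0022 to 0.30 with each sample left out. With library sizes only, the median log2 fold change of the members was -1.67, -0.93 and -2.25 at d0, d3 and d28 against Mock cells, -0.57 for d28 against d0 and -1.33 for d28 against d3. All tested genes then shifted too, with medians of -0.48, -0.37, -1.34, -0.88 and -0.98. RNA5-8SN3 and FP236383.2 turned to -0.74 and -0.64 for d28 against d0, and 5 non-members were called for d28 against d0 and 5 for d28 against d3. Genes called numbered 1411, 710, 17907, 145, 12318 and 16126 in this setting (d0, d3 and d28 against Mock cells, d3 against d0, d28 against d0, d28 against d3), beside 168, 351, 401, 251, 372 and 102 with TMM factors. DESeq2 called 100, 144, 174, 45, 135 and 62. Without mitochondrial genes 52 were called for d28 against d3, and without a filter 245 for d28 against d0.

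As a share of all counts, the members' log2 ratio was -1.68, -0.93 and -2.30 at d0, d3 and d28 against Mock cells, -0.63 for d28 against d0 and -1.37 for d28 against d3. Without nuclear copies of mitochondrial genes in the denominator it was -0.99 (d28 against Mock cells) and 0.25 (d28 against d0), and per TMM effective library -0.97 and 0.27. The d3 call of FP236383.2 against Mock cells was lost without a filter (adjusted p = 0.107), with only the 2 groups in the fit (0.0841) and in DESeq2 (0.0594). The causes were not tested.

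Across the gene lists 2, 1, 0, 2, 4 and 0 genes were called in the same order of comparisons. With library sizes only it was 5 at d0, 108 at d28, 0 for d3 against d0, 82 for d28 against d0 and 107 for d28 against d3. Without mitochondrial genes it was 1 for d3 against d0. Without a filter it was 2 at d3, 1 for d3 against d0 and 1 for d28 against d0. With only 2 groups, 1 was called for d3 against d0, and with DESeq2 0 at d3 and 1 for d3 against d0.

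With each sample left out, genes called ranged over 109 to 137, 187 to 287, 217 to 324, 100 to 202, 164 to 297 and 76 to 95. Non-members called ranged over 4 to 5 at d0, 3 to 5 at d3, 0 to 1 for d3 against d0 and 0 to 1 for d28 against d3. List genes called ranged over 0 to 1 at d3, 0 to 1 at d28, 1 to 3 for d3 against d0 and 0 to 3 for d28 against d0. The members' median ranged over -1.29 to -1.15 at d0, -0.69 to -0.37 at d3 and -0.94 to -0.82 at d28.

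In the fit with a replicate block the members' median was -1.22, -0.56 and -0.91 at d0, d3 and d28, and the block changed no call of a non-member.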
